A study of Mus musculus with 6 samples.

Results

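Genes that take up, store and oxidise vitamin A were compared in intestinal RNA of wild-type (WT) mice and of mice lacking SHP, the small heterodimer partner (SHP-KO). SHP is an orphan nuclear receptor that binds other nuclear receptors and represses their targets, and its gene is Nr0b2. The set holds 9 genes listed by their role in carotene cleavage, retinol binding, esterification and oxidation (Rbp2, Lrat, Bcmo1, Isx, Rdh7, Aldh1a1, Aldh1a2, Cyp26b1 and Rara), and all 9 were found by symbol among 23284 genes in the count tables. They were chosen by role with earlier results of these data known, and not by a threshold on a measured value. Each genotype had 3 libraries of RNA from jejunum and ileum, with total counts of 7956528 to 13511800. All mice of both genotypes were 8-week-old males that fasted overnight and then had food for 6 h. No strain, share of each segment per sample or construction of the Nr0b2 allele is stated in the labels. Whether each library stands for its own animal is not stated either, and p-values then measure only the spread between these samples, which may be technical.

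Dietary vitamin A reaches the enterocyte as retinol, released from retinyl esters in the gut lumen, or as beta-carotene, which is cleaved inside the cell to retinal. Retinol bound to a cellular retinol-binding protein is esterified, packed into chylomicrons and sent out through the lymph, while a smaller part is oxidised to retinoic acid. Retinoic acid binds nuclear receptors of the RAR family, which pair with RXR partners, and in the intestine it induces the homeobox repressor ISX, which lowers the genes for carotene uptake and cleavage. The absorptive genes are known to be highest in the upper small intestine.

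Of the 9 genes, Rbp2 rose, Isx, Bcmo1, Lrat and Aldh1a1 fell, and Rdh7 and Rara did not pass the test. Cyp26b1 passed as higher from few counts, and Aldh1a2 had too few counts to be tested. Thus 8 of 9 passed the filter on low counts, and 6 of these 8 were called at an adjusted p under 0.05 (edgeR's quasi-likelihood test), 2 higher and 4 lower. Over all 12106 tested genes 70.6% were called, 35.2% as higher and 35.4% as lower, so the share among the retinoid genes is near the background. The same holds for separation of the groups, since 6 of the 8 had no overlap between genotypes in scaled counts, against 72.0% of all tested genes. The median log2 fold change was -0.23 over the 8 genes and -0.012 over all tested genes. What follows is therefore a description of each gene's size and direction, not of the set as a whole.

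The start regions of the 3 members with the largest fitted change among the 8 tested are shown because nuclear receptors act through short DNA repeats, and because Isx and Bcmo1 fell by similar amounts while Rbp2 rose. Each window runs from 250 bases before to 50 bases after the RefSeq start site in GRCm38.p6, all on the plus strand, whereas the counts were made on mm9. RefSeq gives the gene Bcmo1 as Bco1. Capitals mark the half-site AGGTCA, searched on both strands, so that it appears as its reverse complement where it lies on the other strand.
Rbp2 (chr9:98490287-98490586): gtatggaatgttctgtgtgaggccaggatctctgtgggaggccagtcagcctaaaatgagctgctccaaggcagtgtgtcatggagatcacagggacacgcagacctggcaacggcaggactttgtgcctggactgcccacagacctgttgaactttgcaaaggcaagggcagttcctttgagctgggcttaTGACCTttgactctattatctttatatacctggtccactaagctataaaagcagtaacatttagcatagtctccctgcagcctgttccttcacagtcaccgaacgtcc
Bcmo1 (chr8:117095615-117095914): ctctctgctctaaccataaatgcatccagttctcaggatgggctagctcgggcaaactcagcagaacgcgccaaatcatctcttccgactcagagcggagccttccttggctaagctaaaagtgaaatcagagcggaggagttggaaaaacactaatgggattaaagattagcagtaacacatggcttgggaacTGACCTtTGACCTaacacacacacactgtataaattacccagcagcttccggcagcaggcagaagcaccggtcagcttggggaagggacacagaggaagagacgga
Isx (chr8:74872924-74873223): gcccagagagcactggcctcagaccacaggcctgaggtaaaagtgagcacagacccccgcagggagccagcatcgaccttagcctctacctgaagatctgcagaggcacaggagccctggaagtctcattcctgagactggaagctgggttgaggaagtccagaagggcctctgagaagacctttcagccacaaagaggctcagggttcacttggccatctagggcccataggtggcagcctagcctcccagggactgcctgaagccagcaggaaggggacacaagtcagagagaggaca

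The Bcmo1 window held 2 half-sites on the minus strand, from -56 to -51 and from -49 to -44 relative to the start site. Together they form a direct repeat with 1 base between the pair (AGGTCANAGGTCA), the arrangement known to bind RXR paired with PPAR receptors and also HNF4A. Among 32851 promoter windows of this length in the RefSeq table, 13 held this repeat (0.0396%) and 5340 held at least 1 half-site (16.3%). Rbp2 had 1 half-site, from -58 to -53, and Isx had none. Direct repeats with 2 bases (AGGTCANNAGGTCA) or 5 bases (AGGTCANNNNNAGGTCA) between the pair, the spacings known for RAR and RXR pairs, were in none of the windows of the 9 genes, and each was in 3 of all windows (0.00913%). Of the other 6 genes, all with at least 1 window, Rdh7 and Rara had a half-site in 1 of their windows and Lrat, Aldh1a1, Aldh1a2 and Cyp26b1 had none. For Rdh7 and for Rara that window matched no GENCODE M21 transcript start of the gene. Their other windows did match, and held no half-site. Only exact matches were counted, so repeats with a differing base were missed. In the Rbp2 window the half-site is followed, after 1 base, by TGACTC, where an exact repeat would read TGACCT. Matches of letters are given as a description, and binding was not measured.

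Rbp2, the cellular retinol-binding protein of the absorptive enterocyte, was the most abundant of the 9 transcripts and, of the 8 tested, the one with the largest fitted change. Scaled counts (CPM, relative to library size with edgeR's TMM factors) stood at 1013, 1007 and 991.5 for the 3 WT libraries, and at 3773, 3838 and 3886 for the 3 SHP-KO libraries. The groups were far apart, and libraries of a genotype differed little. The log2 fold change was 1.93 (SE 0.024, adjusted p 5.0e-79, edgeR), and by absolute size it took rank 828 among 12106 tested genes. The gene lies on chromosome 9 from 98390956 to 98410190 (mm9) in 4 exons. In fold terms SHP-KO libraries held 3.82 times the WT level.

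Lrat makes the lecithin:retinol acyltransferase, which esterifies the retinol that RBP2 delivers, and it fell while Rbp2 rose. WT libraries had 42.6, 42.7 and 44.6 CPM and SHP-KO libraries 33.0, 31.4 and 28.1 CPM. Every SHP-KO library was below every WT library (log2 fold change -0.49, SE 0.070, adjusted p 2.0e-09, edgeR). Lrat no longer passed when edgeR's exact test assumed a coefficient of variation (CV) of 0.2 in place of the estimated spread, with an adjusted p of 0.11. Lrat spans 82696504 to 82707896 on chromosome 3 (mm9). Within each library, the ratio of Rbp2 to Lrat per kilobase of exon was 184.7 ± 6.74 in WT and 995.3 ± 97.3 in SHP-KO (SD, n = 3), with no overlap between the groups.

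The genes for carotene cleavage and its repressor were both lower. Bcmo1, the oxygenase that splits beta-carotene into retinal, stood at 8.84, 10.3 and 10.6 CPM among WT libraries against 4.45, 3.94 and 4.70 CPM among SHP-KO libraries. The groups did not overlap (log2 fold change -1.18, SE 0.16, adjusted p 1.8e-10, edgeR). Isx, which encodes the intestine-specific homeobox repressor, measured 214.0, 216.0 and 215.9 CPM for WT against 100.7, 110.8 and 105.3 CPM for SHP-KO. The log2 fold change of Isx was -1.03 (SE 0.039, adjusted p 3.9e-41, edgeR), and the WT libraries were almost equal. Both genes lie on chromosome 8 (mm9), Bcmo1 from 119619765 to 119657620 and Isx from 77397073 to 77417405.

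Isx and Bcmo1 fell by similar factors. The ratio of Isx to Bcmo1 per kilobase of exon was 30.9 ± 2.88 in WT and 34.5 ± 4.60 in SHP-KO (SD, n = 3), and its libraries overlapped between genotypes (exact permutation test, two-sided, p = 0.4, adjusted p 0.45 over 9 such ratios). With 3 libraries against 3 such a test cannot go below 0.1, and so cannot pass the threshold. The lowest adjusted p among these 9 ratios was 0.129. The other carotenoid cleavage enzyme, Bco2, which cuts off centre in mitochondria, rose from 77.1 ± 4.11 to 93.0 ± 3.66 CPM (SD, n = 3; log2 0.27, adjusted p 1.0e-06, edgeR). At the assumed CV Bco2 had an adjusted p of 0.42 by edgeR's exact test. Of the lipid receptors that ISX controls or that carry carotenoids, Scarb1 summed to 24 counts over WT and 37 over SHP-KO. Its log2 fold change of 1.18 (adjusted p 0.0056, edgeR) failed the threshold on leaving out WT replicate 3, at an adjusted p of 0.057, or SHP-KO replicate 1, at 0.062. Cd36 rose from 3.51 ± 0.33 to 47.8 ± 1.06 CPM (SD, n = 3). In the role of carotene uptake and cleavage, 3 of 5 tested genes were thus higher and 2 lower, where 35.2% and 35.4% of all tested genes were, and 5 genes are too few to set against that.

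**Figure D1:**
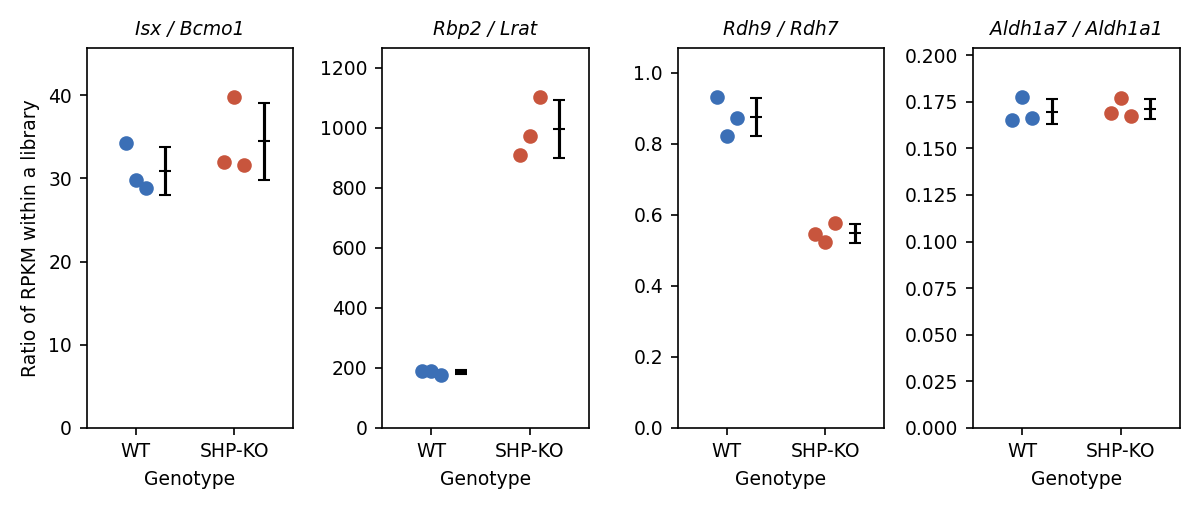
Ratios of 2 transcripts per kilobase of exon within each library (y axis, no unit) by genotype (x axis), with points for the 3 libraries and black marks for mean ± SD. Rbp2 to Lrat went from 184.7 to 995.3 and Rdh9 to Rdh7 from 0.88 to 0.55 without overlap, while Isx to Bcmo1 and Aldh1a7 to Aldh1a1 overlapped between genotypes.

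Along the oxidation to retinoic acid, the retinol dehydrogenase Rdh7 did not pass and the retinal dehydrogenase Aldh1a1 fell. Rdh7 measured 223.7, 232.3 and 229.4 CPM for WT against 227.5, 240.2 and 228.6 CPM for SHP-KO, so that the groups overlapped. The log2 fold change was 0.024 with a 95% interval of -0.043 to 0.091 (adjusted p 0.53, edgeR). Aldh1a1 measured 396.1, 424.6 and 416.2 CPM for WT against 312.2, 314.0 and 297.0 CPM for SHP-KO, with no overlap. Its log2 fold change was -0.42 (SE 0.031, adjusted p 5.6e-22, edgeR), but edgeR's exact test at the assumed CV gave Aldh1a1 an adjusted p of 0.17. Rdh7 lies on chromosome 10 from 127321083 to 127325789 and Aldh1a1 on chromosome 19 from 20676472 to 20717952 (mm9).

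Close relatives of these enzymes give context, since the counting command names no option for reads with several alignments. In GENCODE M21 transcripts, 4.12% of the 100-base windows of Rdh7 and 0.0443% of those of Aldh1a1 also occurred exactly in a transcript of another gene, against 0 for the other 7 members. Rdh9 and Rdh16, neighbours of Rdh7 on chromosome 10, were both lower. Rdh9 went from 338.2 ± 14.5 to 215.2 ± 6.68 CPM (log2 -0.65, adjusted p 9.8e-32, edgeR) and Rdh16 from 19.1 ± 1.37 to 8.87 ± 2.43 CPM (log2 -1.12, adjusted p 5.9e-14, edgeR). Shared windows made up 87.5% of Rdh9, mostly with Rdh16f1, and 10.9% of Rdh16, so their counts are uncertain. Whether Rdh16f1 and Rdh9 overlap in the gene models used for counting was not checked. Aldh1a7, the neighbour of Aldh1a1 on chromosome 19, fell by a like amount (log2 -0.41, SE 0.058, adjusted p 1.7e-09, edgeR). Its ratio to Aldh1a1 per kilobase of exon was 0.170 ± 0.0067 in WT and 0.171 ± 0.0053 in SHP-KO (SD, n = 3). At the assumed CV Aldh1a7 had an adjusted p of 0.19 by edgeR's exact test. Rdh1 summed to 13 WT counts and 10 SHP-KO counts and was not tested, and Aldh1a3 did not pass (log2 -0.26, SE 0.26, adjusted p 0.37, edgeR).

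Aldh1a2, the retinal dehydrogenase known from stromal, mesothelial and dendritic cells, was near the floor of detection. It had 7, 3 and 5 counts in WT and 5, 7 and 14 counts in SHP-KO, or 0.38 ± 0.12 and 1.00 ± 0.53 CPM (SD, n = 3). SHP-KO replicate 3 was well above the other two, and a single count was worth 0.073 to 0.13 CPM. The ratio of summed counts was 2.58 in favour of SHP-KO, with an exact 95% interval of 1.32 to 5.24 that covers counting error only. With no filter on low counts Aldh1a2 had a log2 value of 1.28 (adjusted p 0.024, edgeR), and with a filter of 1 CPM in at least 1 library it had 1.33 (adjusted p 0.021, edgeR). In the authors' deposited table Aldh1a2 had an adjusted p of 0.053. It lies on chromosome 9 from 71063596 to 71144050 and Cyp26b1 on chromosome 6 from 84521408 to 84543902 (mm9).

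Cyp26b1, which breaks down retinoic acid, was also a low transcript. Counts were 12, 8 and 16 in WT and 12, 15 and 16 in SHP-KO, which is 0.88, 0.70 and 1.21 CPM against 1.53, 1.64 and 1.83 CPM after scaling. Raw counts overlapped and scaled counts did not, the SHP-KO libraries having lower totals. Its log2 fold change was 0.82 (SE 0.34, adjusted p 0.027, edgeR), and the call was lost without WT replicate 1, WT replicate 2, SHP-KO replicate 2 or SHP-KO replicate 3 (adjusted p 0.075, 0.11, 0.055 and 0.086, edgeR). It was lost too in DESeq2 (adjusted p 0.11), with no filter on low counts (adjusted p 0.061, edgeR) and in edgeR's exact test at the assumed CV (adjusted p 0.13). Of the relatives that share its role, Cyp26a1 summed to 3 WT counts and 10 SHP-KO counts, and Cyp26c1 had no count in any library.

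Rara, the retinoic acid receptor found in most tissues, measured 61.4, 56.8 and 57.9 CPM for WT against 59.8, 56.0 and 55.7 CPM for SHP-KO. The groups overlapped, and the log2 fold change was -0.041 with a 95% interval of -0.16 to 0.074 (adjusted p 0.53, edgeR). Rara spans 98799010 to 98836256 on chromosome 11 (mm9). Among the other receptors, Rxra fell from 218.4 ± 4.94 to 153.4 ± 3.46 CPM (log2 -0.51, adjusted p 5.0e-23, edgeR). By edgeR's exact test at the assumed CV Rxra had an adjusted p of 0.086. Rarg fell from 6.34 ± 0.62 to 3.36 ± 0.41 CPM (log2 -0.90, adjusted p 1.2e-05, edgeR), and Rxrb did not pass (log2 -0.023, SE 0.073, adjusted p 0.79). Rarb, a receptor gene that retinoic acid induces, had 2, 4 and 8 counts in WT and 5, 9 and 20 in SHP-KO, too few for the test, with a ratio of summed counts of 3.62 (exact 95% interval 1.89 to 7.30). With no filter on low counts Rarb had a log2 value of 1.76 (adjusted p 0.00068, edgeR), and with the filter of 1 CPM in at least 1 library 1.80 (adjusted p 0.0012, edgeR). The authors' deposited table gave Rarb an adjusted p of 0.0023. Rxrg summed to 2 WT counts and 4 SHP-KO counts.

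Levels can be compared between genes per kilobase of exon. In WT the mean levels in RPKM, which is CPM divided by exon length in kilobases, were 1494 for Rbp2, 202.9 for Aldh1a1, 143.2 for Rdh7, 120.2 for Isx, 14.2 for Rara, 8.09 for Lrat, 3.91 for Bcmo1, 0.19 for Cyp26b1 and 0.17 for Aldh1a2. Neighbours in that order did not overlap between WT libraries, except Cyp26b1 and Aldh1a2. In SHP-KO the means were 5703 for Rbp2, 151.4 for Aldh1a1, 145.5 for Rdh7, 58.9 for Isx, 13.8 for Rara, 5.76 for Lrat, 1.72 for Bcmo1, 0.44 for Aldh1a2 and 0.34 for Cyp26b1. There the libraries of Aldh1a1 and Rdh7 overlapped, as did those of the last pair. The ratio of Aldh1a1 to Rdh7 was 1.42 ± 0.024 in WT and 1.04 ± 0.031 in SHP-KO (SD, n = 3), and the mean ratio of Rbp2 to Isx was 12.4 and 96.9.

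**Figure D2:**
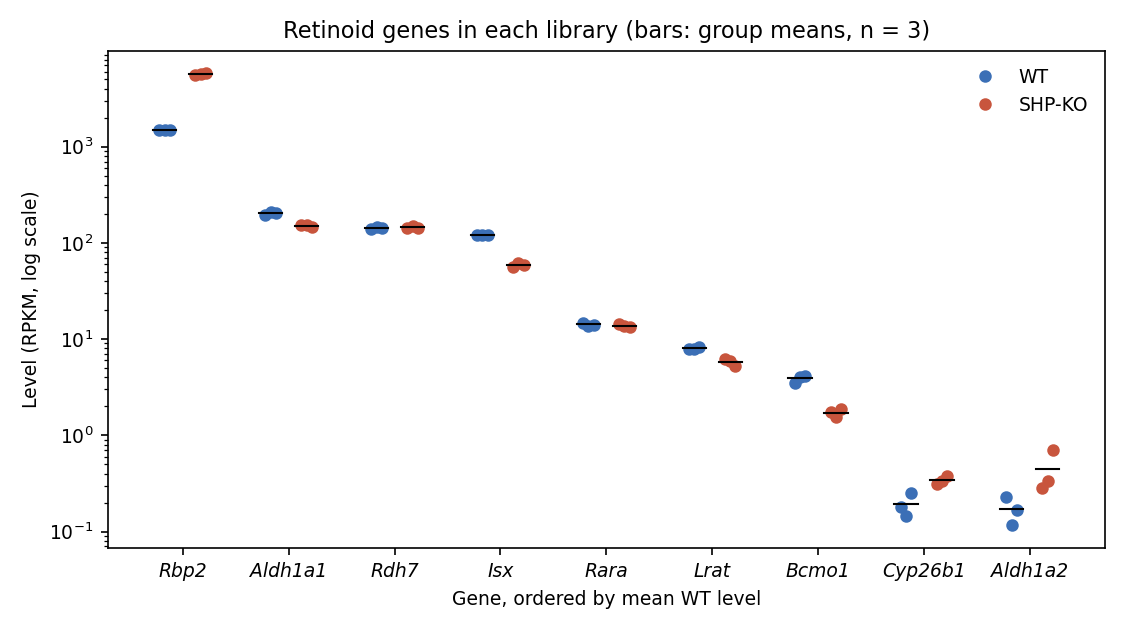
Level of each of the 9 genes (x axis, ordered by WT mean) in RPKM on a log scale (y axis), with 1 point per library and bars for the means of 3 WT and 3 SHP-KO libraries. Rbp2 lies above all others in both genotypes, Isx, Bcmo1, Lrat and Aldh1a1 are lower in SHP-KO, and Rdh7 and Rara overlap.

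A wider list of 58 retinoid genes holds the 9. Of its 40 tested genes 17 were higher and 17 lower, 6 failed the threshold, and the median log2 value was -0.032. Over all tested genes 35.2% were higher and 35.4% lower with a median of -0.012, and the list's counts are given as a description only. Without the 9 genes the counts were 15 higher, 13 lower and 4 not passing of 32. Among genes of binding and transport, Rbp4, the retinol carrier of blood plasma, was at log2 1.03 (adjusted p 0.0040, edgeR) from 37 WT counts and 51 SHP-KO counts, and failed the threshold on leaving out SHP-KO replicate 1, at an adjusted p of 0.085. Ttr, which binds RBP4 in plasma, fell (log2 -1.76, SE 0.32), as did Rbp7 (log2 -1.64, SE 0.31).

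Stra6, the membrane receptor for RBP4, had 24, 19 and 14 counts in WT and 0, 0 and 3 in SHP-KO. The summed counts of 57 and 3 make it 12.8-fold lower, with an exact 95% interval of 4.15 to 63.7 (adjusted p 2.5e-07, edgeR), and without SHP-KO replicate 3 no SHP-KO count is left. Of 4 tested genes of esterification and hydrolysis 3 were higher and Lrat was lower, against 35.2% and 35.4% of all tested genes. Plb1, the brush border phospholipase B that also hydrolyses retinyl esters, rose from 1203 ± 11.6 to 2747 ± 40.4 CPM (log2 1.19). Dgat1, an acyltransferase that can also esterify retinol, and Lipe, the hormone-sensitive lipase, were named after their values were seen and had log2 fold changes of 0.90 (SE 0.024) and 0.75 (SE 0.039).

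Retinol and retinal dehydrogenases gave 7 higher, 7 lower and 3 not passing of 17 tested, beside 70.6% called in either direction among all tested genes. Retsat, which saturates retinol, rose from 73.3 ± 0.78 to 151.3 ± 2.18 CPM (log2 1.05), and Rdh5 from 2.89 ± 0.47 to 6.93 ± 1.64 CPM (log2 1.26). The aldo-keto reductase Akr1b7 fell from 294.0 ± 7.81 to 82.7 ± 4.25 CPM (log2 -1.83). In a list of 20 genes known to respond to retinoic acid, 13 were tested, of which 4 were higher and 5 lower, and the median log2 value was -0.087. That share of called genes is near the 70.6% of all tested genes. Among the members, Cyp26b1 was on the higher side and Isx and Lrat were on the lower side.

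**Figure D3:**
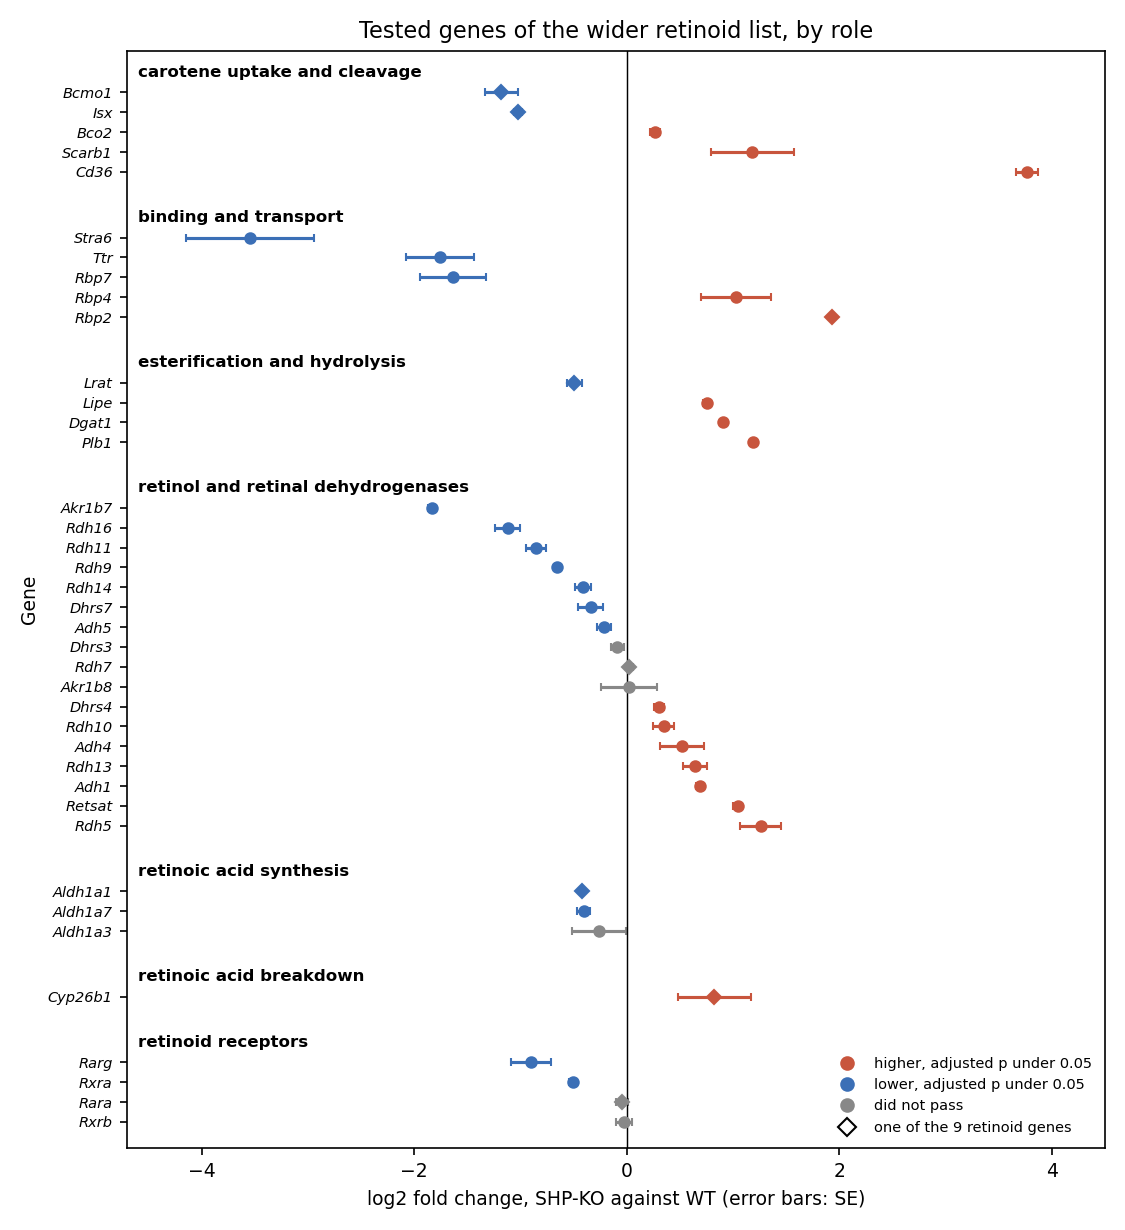
Log2 fold change, SHP-KO against WT, with its SE (x axis) for tested genes of the wider retinoid list, 1 of them not drawn, grouped by role (y axis), with diamonds for members of the set of 9 and Stra6 resting on 3 SHP-KO counts. Values run to both sides of 0 in binding and transport and in the dehydrogenases, and Rdh7 and Rara lie near 0.

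Markers of gut segments were measured in the same libraries, and their counts are to be read against 35.2% higher and 35.4% lower among all tested genes. Of 12 markers of the proximal small intestine 10 were tested, of which 9 were higher and 1 lower (median log2 2.41). Their summed level was 4165 to 4258 CPM in WT and 23505 to 23936 CPM in SHP-KO, most of it Apoa4, and Pdx1 had no count in WT. Of 13 ileum markers, led by Fabp6, 5 were higher and 8 lower (median log2 -0.62). Their summed level was 19142 to 19497 CPM in WT and 4510 to 4557 CPM in SHP-KO, and abundant genes weigh most in it. Fabp6 was at log2 -6.24 in the authors' deposited table, while Slc10a2 and Enpp3, among the 5 higher, were at 1.12 and 4.59. Rbp2, and Cyp26b1 from few counts, changed in the direction of 9 of the 10 tested proximal markers. Isx, Bcmo1, Lrat and Aldh1a1 changed in the opposite one, and Rdh7 and Rara did not pass. The 1 proximal marker that was lower was Slc40a1, with 413 WT counts and 25 SHP-KO counts. The 11 enterocyte markers gave 6 higher, 4 lower and 1 not passing, with sums of 45487 to 45594 CPM in WT and 44478 to 44928 CPM in SHP-KO. In bulk RNA, fewer cells of a type and less RNA per cell cannot be told apart, and the part of segment shares in these results was not tested.

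Markers of the gut wall matter for the low transcripts, because Aldh1a2, Cyp26b1 and Rarb are known from stroma as well. The background for these lists too is 35.2% higher, 35.4% lower and 70.6% called in all, and the endothelial list and the macrophage and dendritic cell list are near the last of these. Of 13 tested fibroblast and matrix markers 11 were higher and 2 did not pass (sums 160.5 to 178.2 CPM in WT and 369.4 to 380.6 CPM in SHP-KO), and 10 of 10 smooth muscle markers were higher (237.7 to 245.8 and 1129 to 1177 CPM). Most of the fibroblast and matrix sums was Fbln1. Of 7 tested endothelial markers 4 rose, 1 fell and 2 failed the threshold (15.1 to 16.5 and 18.5 to 20.7 CPM). All 5 of 5 tested adipocyte markers were higher (117.2 to 121.2 and 160.6 to 172.3 CPM). Most of the adipocyte sums was Cidec, at log2 0.23 and an adjusted p of 0.50 in the authors' deposited table. The median of the tested adipocyte markers was log2 2.92. By edgeR's exact test at the assumed CV 4 adipocyte markers were higher, and with no filter on low counts 8 were. Mesothelial markers were scarce: 2 of 8 were tested and both were lower (16.4 to 17.3 and 6.88 to 10.2 CPM). The untested ones went both ways, and Rspo1 summed to 2 WT counts and 15 SHP-KO counts. Upk3b had 2 and 5, Wt1 had 0 and 3, and Lrrn4 had 0 and 2. Gpm6a had 3 and 1, and Bnc1 had 2 and 0. With no filter on low counts, 1 mesothelial marker was called higher and 2 lower. Of 8 tested markers of macrophages and dendritic cells, 4 rose, 2 fell and 2 failed the threshold (159.4 to 165.6 and 159 to 164.1 CPM). Most of these sums was Irf8 and Lyz2, which went opposite ways, at log2 0.73 and -2.57 in the authors' deposited table. All 8 B cell markers were lower (72.4 to 79.3 and 1.31 to 1.53 CPM), with Cr2 and Fcer2a at 0 in SHP-KO. The part of these cell types in the retinoid results was not tested.

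**Figure D4:**
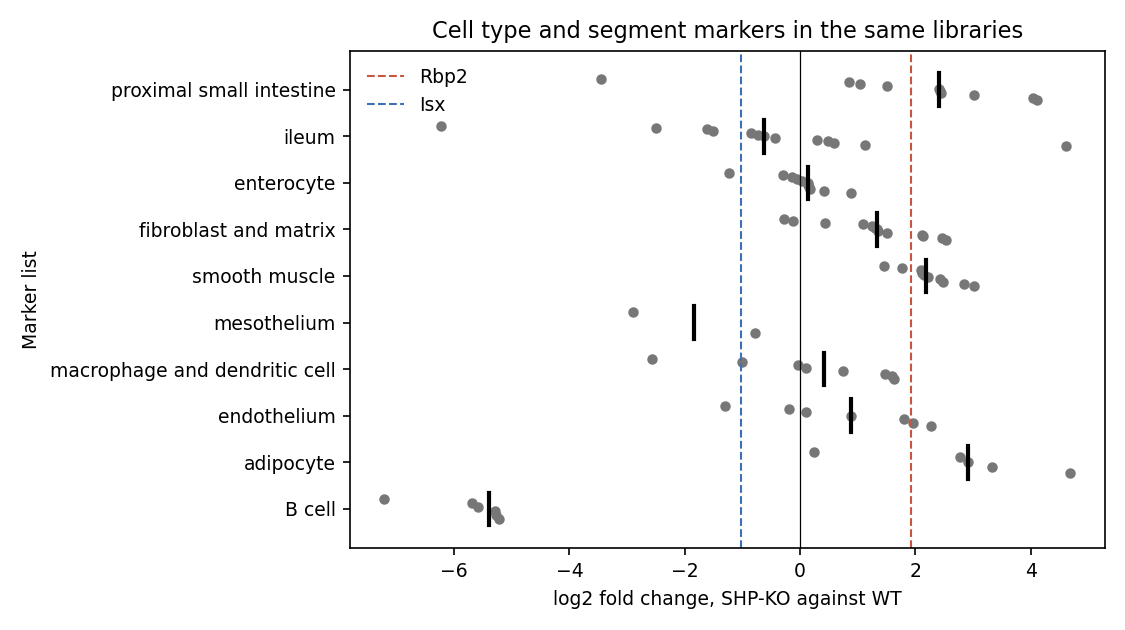
Log2 fold change, SHP-KO against WT (x axis), of each tested marker (grey points) by list (y axis), with list medians as black bars and dashed lines at Rbp2 (1.93) and Isx (-1.03). Points for genes with no count in one genotype are left out and enter the median at a bound of 3 counts over the group, and the proximal, smooth muscle and adipocyte medians lie to the right of 0 while ileum and B cell medians lie to its left.

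Nr0b2 itself, the check of the labels, had 31, 14 and 23 counts in WT and 1, 0 and 0 in SHP-KO. The authors' deposited table gave adjusted p-values of 2.2e-13 for Rbp2, 0.00017 for Bcmo1 and 0.00011 for Isx. In the authors' deposited table Lrat, Aldh1a1 and Cyp26b1 had adjusted p-values of 0.094, 0.14 and 0.13. Rbp2, Bcmo1 and Isx were called both here and there.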

How the data were processed

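Intestinal RNA of 3 WT and 3 SHP-KO libraries was measured. Each deposited library file holds unnormalized counts of reads summed over a gene's exons, ignoring strand, by featureCounts 1.5.2 with mm9 genes per the file headers. In the submitters' processing notes the tools are STAR 2.6.0c, Trimmomatic 0.38, FastQC 0.11.5, bcl2fastq 2.17.1.14 and edgeR without a version. The authors' deposited comparison gives log2 fold changes, log2 mean CPM, p-values and adjusted p-values.

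Of 23284 genes, 12106 passed filterByExpr (minimum count 10). TMM factors were applied, and genotype alone was fitted by edgeR 4.0.16 in R 4.3.3, with its robust quasi-likelihood test. Benjamini-Hochberg adjustment ran over all tested genes (threshold 0.05). RPKM used the deposited exon length. Exact intervals of summed-count ratios cover counting error only, as PCR reads without molecular identifiers are not independent molecules. The 95% intervals of the log2 fold changes of Rdh7 and Rara come from the SE of the fit, which includes spread between libraries. The fit was tested on simulated data. Alternatives were DESeq2 1.42.0, voom in limma 3.58.1, edgeR's exact test, other scalings and filters, a replicate block and leaving out each library. Figures were drawn with matplotlib 3.10.9.

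The members, the wider retinoid, retinoic acid responsive and 10 marker lists were chosen with earlier results of these data known. Named genes are the 9 members, receptors, close relatives, list genes called with at least a 2-fold change and a mean of at least 1 CPM in one group, and up to 2 per marker list. Other named genes were picked after their values were seen. Promoters are RefSeq windows of GRCm38.p6. No gene coordinate was converted between builds. The result of 1 gene of the wider list is not reported here.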

Additional observations from a re-analysis of the deposited data

How the results depend on the processing

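Rbp2, Bcmo1 and Isx kept direction and call in all 15 alternatives, with log2 fold changes of 1.87 to 1.94, -1.26 to -1.11 and -1.09 to -0.997. Lrat and Aldh1a1 lost the call only with the assumed CV of 0.2. That setting called 4041 genes in place of 8543, 2164 higher and 1877 lower. With it 3 of the 9 members were called, 1 higher and 2 lower, and 10 wider retinoid genes were lower. In the retinoic acid responsive list it called 1 higher and 2 lower, and among enterocyte markers 1 higher and 1 lower. DESeq2 called 1 member as higher and 2 retinoic acid responsive genes as higher. Leaving out 1 library at a time gave 1 to 2 members higher, and 2 to 5 retinoic acid responsive genes higher.

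Rdh7, not called in any setting, changed sign with no scaling factors (-0.014), with no filter on low counts (-0.036), and among fits without 1 library (-0.0053 to 0.035). Rxrb ran from -0.065 to 0.035 in those fits. The cause was not tested. With the replicate block, 8573 genes were called and no call of a member changed. Deviations of same-numbered libraries correlated across genes at 0.018, 0.021 and -0.0064. WT replicates 1 and 2 correlated best with their own number, and WT replicate 3 with another number. Correlations this small cannot tell whether the numbers pair the libraries. Depth limits Aldh1a2 and Cyp26b1, with 15 and 36 counts in all WT libraries.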
